A study of Caenorhabditis elegans with 2 samples.

Results

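The 8 genes cct-1 to cct-8 of Caenorhabditis elegans encode the subunits of the cytosolic chaperonin CCT, and they were examined here among 19973 nuclear protein-coding genes for regions found by ChIP-seq of MBF-1. The genes were taken by name, and the family was picked out from regions already seen at cct-1 and cct-8, so the signals, ranks, summit distances and neighbouring gene starts below were used to choose it and are given as a description with no test. The material was whole L2 larvae of mixed sex of strain OP427 (genotype unc-119(ed3) on chromosome III with the transgene wgIs427), and the labels note a line stably expressing MBF-1 fused to GFP-FLAG at its C-terminus. Both biological replicates belonged to 1 group with that genotype, stage and target, and no untagged or untreated group was among the samples. The labels do not say which tissues or which promoter express the transgene, and in whole larvae the cells that give a signal cannot be told apart.

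CCT, also called TRiC, is a barrel of stacked rings in which each subunit has its own place, and it folds newly made proteins, above all actin and tubulin. Each subunit is required for a working complex. MBF-1 is the worm member of a conserved family of coactivators that in yeast links a DNA-binding factor to the TATA-binding protein. Many worm genes are trans-spliced, so that an annotated gene start can lie downstream of the place where transcription begins.

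A region here is a stretch of about 380 bp with a summit and a signal value on the authors' own scale, which serves to order regions within 1 list. The candidate lists held 19135 regions in replicate 1, 23203 in replicate 2 and 30000 in the pooled replicates, and they hold background as well as peaks. The list thresholded on the irreproducible discovery rate (IDR), which keeps regions ranked alike in both replicates, held 132 peaks with a lowest signal of 55.6. Read depth is unknown here. RefSeq annotates all 8 genes as chaperonin subunits, alpha for cct-1 through theta for cct-8, and the ends of all 8 were the same in Ensembl release 115 and RefSeq.

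The sequences at the pooled summits are shown because the 4 regions closest to CCT gene starts differ in composition and in a short motif. They are reference bases (WBcel235, the same assembly as ce11), written on the strand of the CCT gene, up to 100 bp on either side of the summit and ending before the first base of a gene. Capitals mark the core of a heat shock element, GAANNTTC, the element bound by the heat shock factor HSF-1.
cct-1 (chrII:8185070-8185270, plus strand): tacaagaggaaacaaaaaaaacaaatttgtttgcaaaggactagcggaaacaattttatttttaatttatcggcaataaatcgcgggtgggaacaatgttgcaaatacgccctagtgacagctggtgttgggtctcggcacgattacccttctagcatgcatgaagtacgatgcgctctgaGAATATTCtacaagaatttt
cct-8 (chrIV:1094264-1094464, minus strand): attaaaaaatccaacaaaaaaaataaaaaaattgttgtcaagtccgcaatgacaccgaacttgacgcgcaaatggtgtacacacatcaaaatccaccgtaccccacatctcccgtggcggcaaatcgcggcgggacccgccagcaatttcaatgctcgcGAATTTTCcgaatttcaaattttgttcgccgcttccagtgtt
cct-4 (chrII:8283515-8283666, plus strand): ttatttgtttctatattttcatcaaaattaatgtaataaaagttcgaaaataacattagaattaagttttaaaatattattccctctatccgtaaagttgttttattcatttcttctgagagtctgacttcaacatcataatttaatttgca
cct-6 (chrIII:5855713-5855913, minus strand): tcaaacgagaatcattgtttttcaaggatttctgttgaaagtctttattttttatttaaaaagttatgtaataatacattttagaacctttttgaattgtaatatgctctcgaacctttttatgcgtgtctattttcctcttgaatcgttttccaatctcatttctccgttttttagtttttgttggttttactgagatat

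At 2 of the 8 genes, cct-1 and cct-8, a strong region was listed in both replicates, in the pooled list and in the IDR list. Of all protein-coding genes 0.295% had an IDR peak within 500 bp of the start, and nothing is read from this comparison, because the family was picked for these 2 peaks. At cct-4 and cct-6 a region that was weak beside those 2 was listed at the start in the pooled list and in neither replicate. At cct-2, cct-3, cct-5 and cct-7 no pooled region had a summit within 1000 bp of the start. The pooled list had a summit within 500 bp at 31.0% and within 1000 bp at 49.2% of all protein-coding genes.

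**Figure D1:**
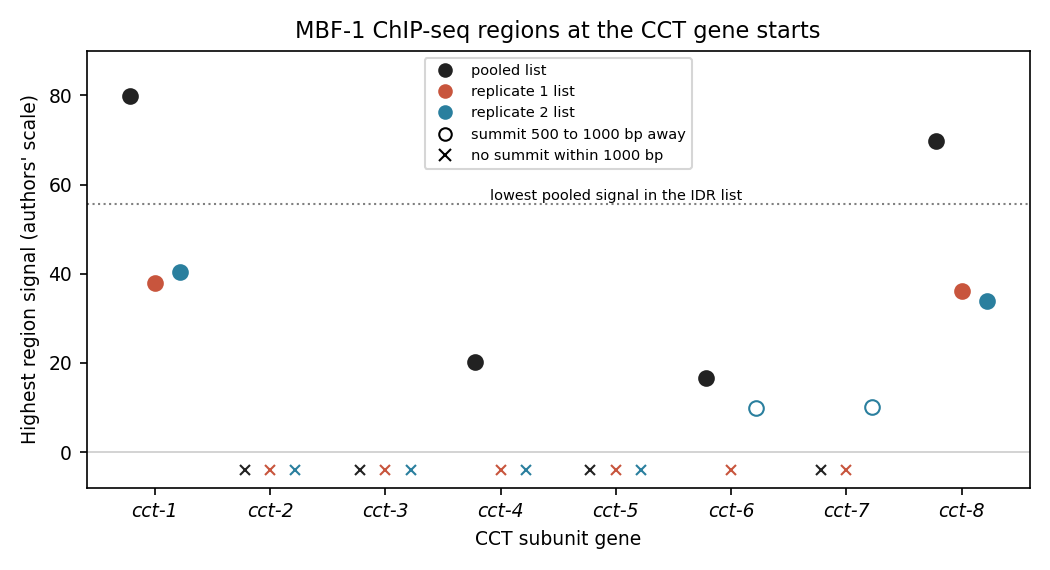
Highest signal of a region near each CCT gene start, on the authors' scale, in the pooled list (black), replicate 1 (red) and replicate 2 (blue). Filled points have a summit within 500 bp, open points one 500 to 1000 bp away, and crosses stand for no summit within 1000 bp in that list. cct-1 and cct-8 have points in all 3 lists, at 33.9 to 79.9, and every other point lies at 20.3 or less. The dotted line is the lowest signal in the IDR list, 55.6, which is on the scale of the pooled list.

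The alpha subunit gene cct-1 (WBGene00000377, chromosome II, 8185443 to 8187601, plus strand) had the highest signal of the family. Its region had a signal of 38.0 in replicate 1, 40.5 in replicate 2 and 79.9 in the pooled list. These values ranked 80 of 19135, 58 of 23203 and 60 of 30000, so the region was near the top of each of these candidate lists. In the IDR list it ranked 60 of 132. The pooled region covered 8184980 to 8185359, and its summit lay 273 bp upstream of cct-1 in intergenic sequence. The summit was nearer to mig-5, a Dishevelled gene of Wnt signalling that is transcribed the other way, at 147 bp. In replicate 1 the distances were 268 bp from cct-1 and 152 bp from mig-5, and in replicate 2 they were 299 bp and 121 bp. The summit therefore lay between the starts of both genes. The region itself reached over the start of mig-5 and ended before that of cct-1. Its position does not tell which of them it belongs to.

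The theta subunit gene cct-8 (WBGene00021934, chromosome IV, 1087108 to 1093920, minus strand) came next. Its region had a signal of 36.1 in replicate 1, 33.9 in replicate 2 and 69.8 in the pooled list. Its ranks were 87, 112 and 76. In the IDR list it ranked 76 of 132, below the median signal of that list, 74.9. The pooled region covered 1094174 to 1094553, with an intergenic summit 444 bp upstream of cct-8, close to the limit of 500 bp, and the summits of the replicates lay 438 bp and 430 bp upstream. Another 2 starts were closer to the pooled summit. They belong to Y55F3AR.2, annotated with a thioredoxin domain and transcribed away from cct-8, at 177 bp, and to the non-coding RNA gene Y55F3AR.4, at 277 bp. The start of Y55F3AR.4 lay on the side of the summit that faces cct-8.

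At both genes the replicates placed the summit and the signal close together. The replicate summits were 31 bp apart at cct-1 and 8 bp apart at cct-8, against a median of 38 bp (quartiles 15 and 79 bp) over the 111 nuclear IDR peaks with a region in both replicates. The higher replicate signal was 1.06 times the lower at cct-1 and 1.07 times at cct-8, where the median of these peaks was 1.24 (quartiles 1.13 and 1.49). IDR keeps regions that rank alike, so closeness of the replicate signals is part of how all 111 peaks were selected. The family was picked for 2 of these peaks, so nothing is read from where those 2 stand among them. cct-1 was above cct-8 by 1.88 in replicate 1 and by 6.56 in replicate 2, while the replicates differed from each other by 2.44 at cct-1 and 2.24 at cct-8. The last 2 values compare signals of different lists with unknown depth, so they do not measure the spread between replicates. No order between the 2 genes is read from these values.

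A further pair of weak regions lay inside cct-8, in an intron. In the pooled list their summits were 1088 bp and 1287 bp downstream of the start, with signals of 18.6 and 20.6. Replicate 1 had a single region there, 1281 bp downstream, with a signal of 17.1 at rank 3738. Replicate 2 listed none within 2000 bp of the start other than the upstream region. These summits fall outside the 1000 bp limit, just as the upstream one falls inside that of 500 bp.

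The delta subunit gene cct-4 (WBGene00000379, chromosome II, 8283667 to 8285711, plus strand) had the summit closest to its start, 52 bp upstream. Its pooled signal was 20.3 at rank 15403, and neither replicate listed a region there. The nearest summit was 9285 bp away in replicate 1 and 3288 bp in replicate 2. The other start near the pooled summit was that of nst-1, the worm nucleostemin, which is transcribed the other way and was 407 bp away.

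The zeta subunit gene cct-6 (WBGene00000381, chromosome III, 5853530 to 5855687, minus strand) had a pooled region with a signal of 16.6 at rank 26010, not far above the lowest listed signal of 15.5. Its summit lay 126 bp upstream of cct-6 and 205 bp from alh-9, an aldehyde dehydrogenase family gene transcribed the other way. Replicate 1 had its nearest summit 7151 bp away. Replicate 2 listed a separate region in the coding sequence, 587 bp downstream of the start, with a signal of 10 at rank 22984 of 23203. That region lay just outside the limit of 500 bp and did not overlap the pooled one.

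The eta subunit gene cct-7 (WBGene00020391, chromosome V, 1872246 to 1875505, plus strand) had 1 region within 1000 bp, in replicate 2 alone. Its summit lay 881 bp downstream in an intron, with a signal of 10.2 at rank 22155, where the lowest signal in that list was 9.99. In the pooled list and in replicate 1 the nearest summit was 2366 bp downstream in both, with signals of 25.7 and 12.5. The regions of replicate 2 at cct-6 and cct-7 were thus among the weakest of its list.

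The beta, gamma and epsilon subunit genes had no region within 1000 bp of their starts in any list. For cct-2 (WBGene00000378, chromosome II, 8927741 to 8929815, plus strand) the nearest summit was 1901 bp upstream, inside an intron of its neighbour B0457.2, at 36.9 in the pooled list and 28.4 in replicate 2. In replicate 1 it was 5228 bp away. For cct-3 (WBGene00018782, chromosome II, 2233540 to 2243539, plus strand) the nearest pooled summit was 2367 bp downstream with a signal of 24.2. Replicate 2 had one in an intron 1439 bp downstream, with a signal of 11.0. For cct-5 (WBGene00000380, chromosome III, 4499188 to 4508114, minus strand) the nearest pooled summit was 2179 bp downstream, with a signal of 17.9. A gene with no listed region is not shown to lack signal, because alignments were not analysed.

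**Figure D2:**
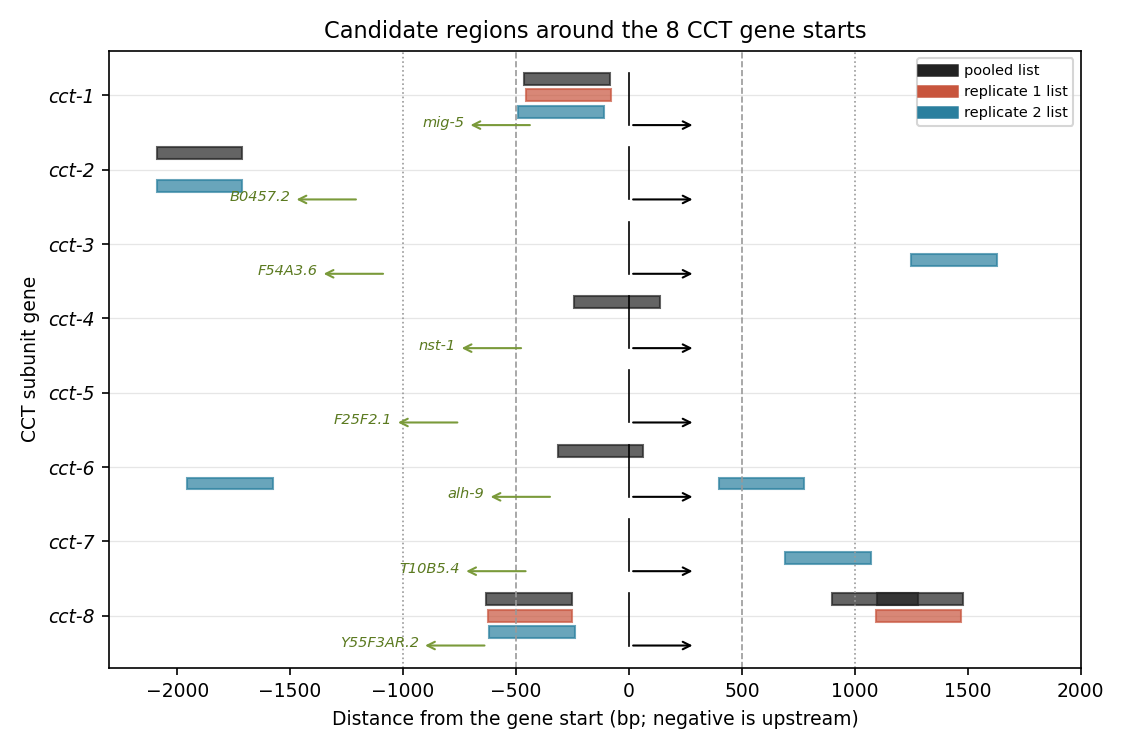
Candidate regions within 2000 bp of the 8 CCT gene starts, drawn to scale by distance from the start in bp, with each gene pointing right (black arrow). Bars are regions of the pooled list (black), replicate 1 (red) and replicate 2 (blue), green arrows mark the start and direction of the nearest upstream protein-coding gene, and vertical lines stand at 500 bp (dashed) and 1000 bp (dotted). At cct-1 and cct-8 the bars of all 3 lists overlie each other and are centred between the opposed starts. At cct-1 all of them reach over the start of the neighbour, and at cct-8 those of the pooled list and replicate 1 do.

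The weak pooled regions were set beside the replicate lists to see how the lists relate. Over the 7560 nuclear pooled regions that overlapped a region of both replicates by at least 1 bp, the pooled signal was 0.938 times the sum of the replicate signals at the median (5th to 95th percentile 0.562 to 1.12). At cct-1 this ratio was 1.02 and at cct-8 it was 0.996. The lowest signals of the replicate lists sum to 20.8, and the pooled signals at cct-4 (20.3) and cct-6 (16.6) were under that sum. The median signal of all 30000 pooled regions, 20.5, was under it as well, so this does not set cct-4 and cct-6 apart. Of the 29979 nuclear pooled regions, 5162 (17.2%) overlapped no replicate region, with a median signal of 17.4, against 26.7 for those with both. The regions at cct-4 and cct-6 belong to this group. Whether either marks binding was not tested.

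Counts for the family are given beside the shares over all protein-coding genes. In the pooled list 4 of the 8 CCT genes had a summit within 500 bp, where 31.0% of all protein-coding genes did, and 4 within 1000 bp, where 49.2% did. Replicate 1 had 2 genes within 500 bp, with a background of 20.1%, and the same 2 within 1000 bp, with a background of 33.8%. Replicate 2 had 2 within 500 bp, with a background of 25.5%, and 4 within 1000 bp, with a background of 41.4%. Some counts in the candidate lists were above the background and others below it. Each count holds cct-1 and cct-8, the genes for which the family was picked, so nothing is read from them. The IDR list held 2 of the 8 within 500 bp, where 0.295% of genes (59 of 19973) had a peak, and the same 2 within 1000 bp, where 0.431% did. The family was picked for these 2 peaks, so nothing is read from this comparison either.

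**Figure D3:**
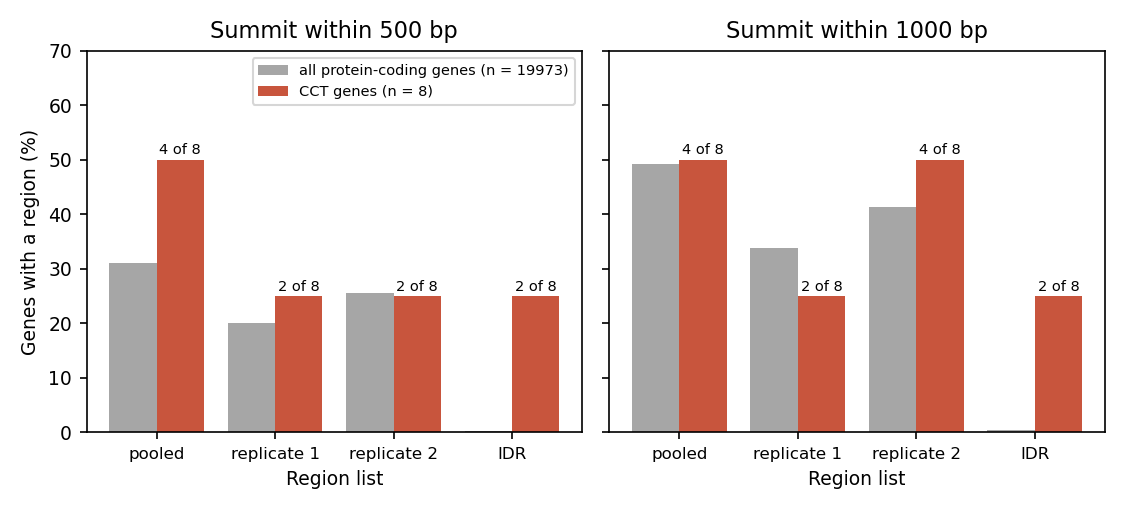
Percentage of all protein-coding genes (grey) and of the 8 CCT genes (red) with a region summit within 500 bp (left) or 1000 bp (right) of the start, for the pooled, replicate and IDR lists. The CCT bars stand at 2 or 4 of 8 genes, beside backgrounds of 20.1 to 49.2% in the candidate lists and under 1% in the IDR list.

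The family split by strength as well as by presence. Among the 6192 protein-coding genes with a pooled region within 500 bp, ordered by highest signal, cct-1 was number 16 and cct-8 number 31. cct-4 was number 3516 and cct-6 number 5539. The median of the 4 CCT genes was 45.0, against 21.2 over all 6192, and no CCT gene lies near that median of 4, because 2 values were 69.8 or more and 2 were 20.3 or less. In replicate 1 cct-1 was number 22 and cct-8 number 24 of 4023 genes, and the median of both was 37.1 against 14.2 over all. In replicate 2 they were numbers 24 and 59 of 5085, with a median of 37.2 against 13.4. The family was picked for cct-1 and cct-8, the only members in either replicate median, so nothing is read from these ranks and medians.

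**Figure D4:**
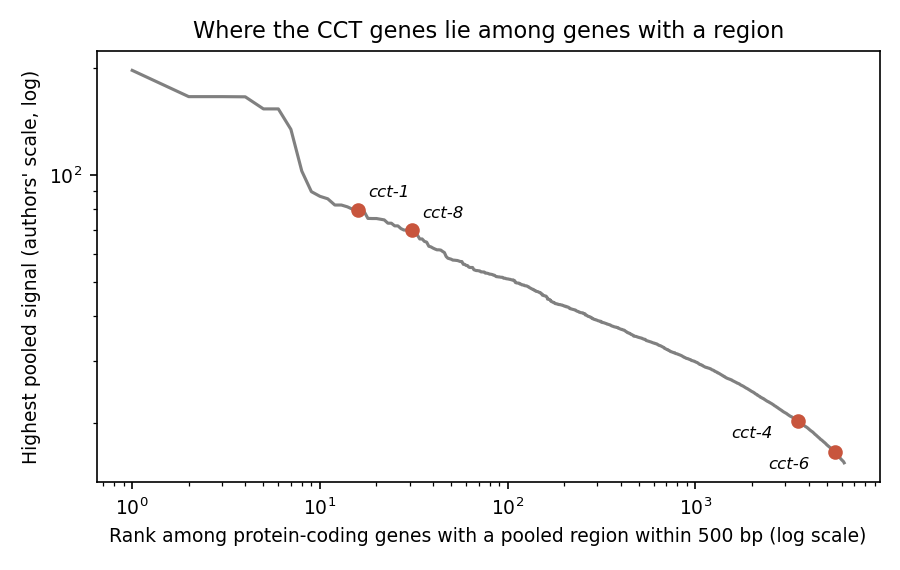
Highest pooled signal within 500 bp of the start for each of 6192 protein-coding genes (grey line), in order of signal, with both axes on a log scale and the 4 CCT genes that have a region in red. cct-1 (number 16) and cct-8 (number 31) lie near the strong end. cct-4 (3516) lies a little past the middle of the order, which the log scale draws far to the right, and cct-6 (5539) lies towards the weak end.

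The neighbouring starts, which were among the values read when the family was picked, are given as a description. The nearest protein-coding gene upstream of each of the 8 CCT genes is transcribed away from it, so that the pair starts from a common spacer, an arrangement found at 42.2% of all protein-coding genes (8420 of 19973). The spacer was 330 bp at cct-6 (towards alh-9), 419 bp at cct-1 (mig-5), 438 bp at cct-7 (T10B5.4), 458 bp at cct-4 (nst-1), 620 bp at cct-8 (Y55F3AR.2) and 740 bp at cct-5 (F25F2.1). It was 1069 bp at cct-3 (F54A3.6) and 1189 bp at cct-2 (B0457.2). All 4 genes with a pooled region within 500 bp were among the 6 with a spacer of up to 1000 bp, and cct-5 and cct-7 had such a spacer with no region.

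The same arrangement was counted over the genome. Of 3435 genes with an opposed neighbour starting within 1000 bp, 35.0% had a pooled region within 500 bp and 0.873% an IDR peak. For the 4985 with a longer spacer the shares were 28.9% and 0.181%. For the 5551 genes that follow a neighbour on the same strand within 1000 bp they were 33.8% and 0.252%. A summit between opposed starts counts for both genes, so these shares are not counts of separate regions, and the differences were not tested.

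Base composition differed between the strong and the weak regions of the family. G+C within 100 bp of the pooled summit was 44.8% at cct-8 and 39.3% at cct-1, and 32.3% at cct-4 and 27.4% at cct-6. The window of cct-4 reaches into the gene, and its value covers bases not printed above. The median was 31.8% over all 6298 pooled regions with a summit within 500 bp of a protein-coding start, and 39.8% over the 46 nuclear IDR peaks placed in the same way. cct-8 stood at percentile 96.0 and cct-1 at percentile 86.9 of the 6298, while cct-4 (54.4) and cct-6 (21.4) stood in its middle and lower part. Within 50 bp of the summit cct-8 reached 57.4% and cct-1 43.6%, and cct-4 and cct-6 both had 25.7%. The part of G+C in the signal was not tested.

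The G+C of the 300 bp before the start gave another order. It was 38.0% at cct-7 and 37% at cct-1, between 30.3% and 31.0% at the other 6 genes, and 33.3% at the median of all protein-coding genes. The high G+C at cct-8 lies around its summit, further upstream.

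Of 7 motifs searched on both strands within 100 bp of the 4 summits, the heat shock element core GAANNTTC was in those of cct-1 and cct-8 and in neither of the weak regions. It was in 14.4% of the 6298 pooled regions at protein-coding starts and in 10 of the 46 IDR peaks there (21.7%), cct-1 and cct-8 among them. The match GAATATTC took positions 182 to 189 of the cct-1 window and GAATTTTC positions 160 to 167 of the cct-8 window, counted from its 5′ end. Both lay on the side of the summit that faces the CCT gene, and neither was within 50 bp of the summit. The block TTTTTTTT was in the same 2 windows, on the strand opposite the CCT gene, and in 26.5% of the 6298.

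The other motifs gave no match in the 4 windows. They were GAGAGA (11.1% of the 6298), CACGTG (2.76%), TGATAA (22.1%), the A box (17.2%) and the B box (0.191%), the last 2 being promoter elements of tRNA genes. No match says only that these letters are not in the windows.

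The core of the heat shock element was also searched in the 300 bp before each CCT start, since CCT genes are known as part of the chaperone network that HSF-1 serves. It was found at 5 of the 8 genes, and at 19.0% of all protein-coding genes (3789 of 19973) and 21.1% of the 3435 with an opposed neighbour within 1000 bp. The 5 matches are shown with 11 bases on either side, on the strand of the gene, with the core in capitals.
cct-1 (chrII:8185240-8185269, plus strand): atgcgctctgaGAATATTCtacaagaattt
cct-3 (chrII:2233507-2233536, plus strand): aggtgttccttGAAAATTCccccaaatttc
cct-5 (chrIII:4508246-4508275, minus strand): tcattcctcgaGAATATTCtgcgggtttga
cct-7 (chrV:1872076-1872105, plus strand): tggatctttgtGAATTTTCcagattttctt
cct-8 (chrIV:1094091-1094120, minus strand): tttgtcatcgtGAAGTTTCtcaaagtgaat

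The centres of these cores lay 188 bp before the start of cct-1, 18 bp before cct-3, 146 bp before cct-5, 155 bp before cct-7 and 185 bp before cct-8. The one at cct-1 is the match in its summit window, while the one at cct-8 is a second core, nearer the gene than the summit window. In the family, cct-3, cct-5 and cct-7 had a core and no pooled region within 1000 bp, cct-4 and cct-6 had a region and no core, and cct-2 had neither. Over all protein-coding genes 32.0% of those with a core had a pooled region within 500 bp, against 30.8% of those without, and 0.475% against 0.253% had an IDR peak, differences that were not tested. A site of 3 alternating units, looked for after these values were seen, was before none of the 8 genes and before 1.92% of all.

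The cct-1 and cct-8 windows were compared with each other after they had been seen. The longest strings they shared were rich in A and T, up to 11 bases. A shared string of 9 bases with high G+C, AAATCGCGG, began at position 78 of the cct-1 window and 122 of the cct-8 window, on the strand of the CCT gene in both. The summit is position 101, so the string began before it in one window and after it in the other. It was in 12 of the 6298 pooled regions at protein-coding starts (0.191%) and in 3 of the 46 IDR peaks there, 2 of them being cct-1 and cct-8. Because the string was found by comparing these 2 windows, its presence in them supports nothing.

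Genes of other chaperones and of the proteins that CCT folds were counted in the same way, against the pooled background of 31.0% within 500 bp. Of 6 subunit genes of prefoldin, which hands unfolded actin and tubulin to CCT, 5 had a pooled region. The strongest were pfd-1, with 17.2 in replicate 1, 31.9 in replicate 2 and 49.3 pooled, and pfd-5, with 32.4, 12 and 41.3. None of the 6 had an IDR peak within 500 bp, where 0.295% of all protein-coding genes did, and no prefoldin gene had a pooled signal as high as those of cct-1 and cct-8. The summit counted for pfd-1 was 57 bp from the start of another gene, C08F8.13.

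Among 9 Hsp70 and Hsp110 genes 5 had a pooled region. None had an IDR peak within 500 bp, against the same background of 0.295%. The strongest were hsp-110, a nucleotide exchange factor of Hsp70, at 51.2 pooled with a summit 58 bp from the start of another gene, C30C11.14, and hsp-1, the constitutive cytosolic Hsp70, at 49.7. F44E5.4 and F44E5.5 share a single region at 29.4. Of 6 genes for Hsp90 and its partners 4 had a pooled region, led by enpl-1, the Hsp90 of the endoplasmic reticulum, at 33.6 and the co-chaperone gene sti-1 at 24.7. Of 14 small heat shock protein genes 3 had one, led by hsp-12.2 at 33.1 and sip-1 at 19.5. The summit counted for sip-1, 237 bp from its start, was nearer to that of sly-1, at 20 bp.

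Of the folding clients, 3 of 5 actin genes had a pooled region, led by act-4 at 21.1 and act-1 at 19.6. Of 16 tubulin genes 3 did, led by tba-2, an alpha-tubulin gene, with 44.5 in replicate 1, 33.2 in replicate 2 and 75.0 pooled, and tba-6 at 18.7. The peak at tba-2, with a summit 165 bp from its start, was the only IDR peak within 500 bp of a gene whose symbol matched in these 7 lists. Its pooled signal lay between those of cct-1 and cct-8. Y22D7AL.10, annotated as the 10 kDa mitochondrial heat shock protein, was not matched, and it had an IDR peak at 172 bp with a signal of 87.0.

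Another 2 chaperone genes had an IDR peak between 500 and 1000 bp from the start, and they are named after their values were seen. At hsp-60, the mitochondrial chaperonin, the summit was 641 bp away with signals of 43.3 in replicate 1, 41.4 in replicate 2 and 87.0 in the IDR list. That summit was nearer to Y22D7AL.10, at 172 bp, which RefSeq annotates as the 10 kDa mitochondrial heat shock protein. The lists sought the gene of that product under the symbol hsp-10, which had no match, so Y22D7AL.10 was not counted in them. At hsp-90, the cytosolic Hsp90, the summit was 832 bp away with signals of 43.1, 42.6 and 85.7, and it was nearer to C47E8.4, at 265 bp. The peak at hsp-60 was thus nearest to another heat shock protein gene, while those at cct-1 and cct-8 were nearest to mig-5 and Y55F3AR.2.

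At mbf-1 itself (WBGene00003148, chromosome IV, 11479354 to 11480369) the nearest pooled summit was 22870 bp from the start.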

How the data were processed

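MBF-1 ChIP-seq of 2 biological replicates, numbered in the labels, was analysed from 4 lists in ce11 coordinates. The authors' deposited signal values, 1 for each region, were used as they stand; candidate regions were called per replicate and on pooled replicates against a control alignment, and the IDR list derives from all 3, per the labels' accompanying file lists. For the aligner, peak caller, signal scale and IDR threshold: not given in the sources used here. Lists in ce10 coordinates were not used, and depth is unknown.

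Gene starts came from Ensembl release 115 (WBcel235), bases and products from RefSeq. A region belonged to a gene when its summit lay within 500 bp (or 1000 bp) of the start. Nuclear protein-coding genes were the background. Of 59 symbols in 7 related lists, 55 matched by symbol, and near-identical hsp-16 copies share a symbol. No test was run, since the rule used every list. The members and lists were chosen with earlier results of these data known. Genes named were the 8 members, mbf-1, starts near member regions and the nearest protein-coding gene upstream of each member. Up to 2 leading genes per list were named, and also F44E5.4 and F44E5.5, which share a region. Beyond these, hsp-60, hsp-90 and genes with a start nearer to a summit given for a related gene were named. Gene assignment was checked on simulated data for 200 genes. Work used Python 3.11.15 with pandas 2.3.3 and numpy 2.4.6.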

Additional observations from a re-analysis of the deposited data

How the results depend on the processing

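The count of CCT genes with a pooled region within 500 bp (4) was 4 with transcript starts or overlap by at least 1 bp and 5 within 2000 bp. It was 2 with either replicate left out (2 to 2), 2 with only the pooled regions at or above the median signal, 2 in the IDR list and 1 (cct-1) with the 66 IDR peaks of highest signal. With a window of 200 bp it was 2, and these were cct-4 (52 bp) and cct-6 (126 bp), not cct-1 and cct-8. The count within 1000 bp (4) ran from 2 to 4 with a replicate left out and was 2 with the same stronger regions and 2 with a window of 200 bp. The median signal (45.0) was 37.1 to 37.2 with a replicate left out, on the scale of another list, and 74.9 with the stronger regions. In each of these settings only cct-1 and cct-8 of the family had a region within 500 bp. Median G+C at the 4 summits (35.8%) was 34.7% within 50 bp and 31.0% over 300 bp before all 8 starts. Genes of related lists with a pooled region were 23 within 500 bp and 34 within 1000 bp. The ce10 lists were not compared by position. No paired analysis was possible because there is 1 group. Unknown depth limits any reading of a missing region.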
